A study of Mus musculus with 24 samples.

Results

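Drosha, Dgcr8, Dicer1, the Argonaute genes Ago1, Ago2, Ago3 and Ago4 and the TNRC6 genes Tnrc6a, Tnrc6b and Tnrc6c make and use microRNAs. They are 10 of the 18193 genes with a symbol of their own on the array. They were measured by every probe set whose single symbol in the platform annotation was 1 of these names, which gave 36 of 45037 probe sets. All 36 stood under the current symbols, and none under the older Eif2c names of the Argonautes. The RNA came from the cerebral cortex of male mice of the FVB strain at postnatal day 7, and all mice shared that background, sex and age. The 4 groups were polyribosomal RNA of Fmr1 KO cortex, polyribosomal RNA of WT cortex, total RNA of Fmr1 KO cortex and total RNA of WT cortex, with 6 arrays in each. The Fmr1 KO mice carry a null allele of Fmr1, which encodes the RNA-binding protein FMRP, and the WT mice were their littermates. Each lysate was a pool of 2 mice of a genotype, and part of it was kept as total RNA while the rest went onto a sucrose gradient, so that 12 lysates gave the 24 arrays. The polyribosomal RNA was fractions 10 to 13 of 16, which held mRNAs on 6 or more ribosomes, and a lower value there does not say that an mRNA was free of ribosomes. The lysates had been cleared by centrifugation, so total RNA here is cytoplasmic RNA.

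In the nucleus, the RNase Drosha and its RNA-binding partner DGCR8 cut hairpins out of primary microRNA transcripts, and in the cytoplasm Dicer cuts the exported hairpins to mature microRNAs. An Argonaute protein holds the microRNA and pairs it with target mRNAs, and a TNRC6 protein bound to the Argonaute recruits the deadenylases that shorten the target's poly(A) tail. In neurons the pathway is known for its part in development and in local control of translation, and FMRP is known to associate with Argonaute proteins.

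By the RefSeq annotation of GRCm38.p6, Ago3, Ago1 and Ago4 are 3 consecutive genes on chromosome 4. Ago2, Drosha and Tnrc6b lie on chromosome 15, Tnrc6a on 7, Tnrc6c on 11, Dicer1 on 12 and Dgcr8 on 16. Of these genes, Dgcr8 and Tnrc6b hold annotated microRNAs within their span and on their own strand. The hairpins in the Dgcr8 transcript are known as sites where Drosha and DGCR8 cut the mRNA of DGCR8 itself, which is why their mature sequences are shown. The sequences are RefSeq's, 5′ to 3′, with the seed (bases 2 to 8, the part that pairs with targets) in capitals, and no 2 of the 5 share a seed. The arrays measured mRNAs and gave no level of any of these microRNAs.
mmu-miR-1306-3p, in Dgcr8, chr16:18284248-18284268, minus strand: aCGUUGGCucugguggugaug
mmu-miR-1306-5p, in Dgcr8, chr16:18284288-18284310, minus strand: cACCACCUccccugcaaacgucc
mmu-miR-3618-3p, in Dgcr8, chr16:18284562-18284583, minus strand: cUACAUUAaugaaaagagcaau
mmu-miR-3618-5p, in Dgcr8, chr16:18284602-18284623, minus strand: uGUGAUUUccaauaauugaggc
mmu-miR-5113, in Tnrc6b, chr15:80940049-80940071, plus strand: aCAGAGGAggagagagauccugu

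Tnrc6a and Tnrc6b, whose mRNAs stood on opposite sides of the polyribosomal comparison below, have annotated transcript starts in the same build. The only start listed for Tnrc6a lies inside its annotated span, which begins upstream of it at base 123031101 of chromosome 7. An mRNA that begins with a C and a run of further pyrimidines is known for control of its loading onto ribosomes, so the bases around these starts are shown. Each sequence gives 40 bases before the start in lower case and the first 20 transcribed bases in capitals.
Tnrc6a, chr7:123123845-123123904, plus strand: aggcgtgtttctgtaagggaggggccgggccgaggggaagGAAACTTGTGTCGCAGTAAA
Tnrc6b, the first start, chr15:80711273-80711332, plus strand: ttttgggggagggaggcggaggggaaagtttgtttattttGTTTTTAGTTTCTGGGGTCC
Tnrc6b, the second start, chr15:80798570-80798629, plus strand: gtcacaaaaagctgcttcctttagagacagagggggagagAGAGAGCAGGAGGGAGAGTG
A C at the start followed by at least 4 pyrimidines, read on the transcribed strand alone, was found at 0 of the 11 annotated starts that 9 of the 10 genes (not Ago2) had in the table, and at 2.51% of all 32851 starts. The absence says only that these letters do not stand at the annotated base.

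The values were log2 values made by GCRMA, a method that corrects the background of each probe, normalizes between arrays and summarizes a probe set. A probe set was tested where it reached a log2 value of at least 4 on at least 6 arrays of a comparison, and 26 of the 36 probe sets of these genes did so in at least 1 comparison. A gene was counted by its brightest probe set, that is, the brightest on average over all arrays, and a change was called at an adjusted p under 0.05 from limma, with Benjamini-Hochberg adjustment over all probe sets tested. The medians of the 24 arrays lay between 3.17 and 3.20. The brightest Fmr1 probe set had a log2 value of 6.19 ± 0.48 in Fmr1 KO against 9.90 ± 0.21 in WT polyribosomal RNA (SD, n = 6 each). At 3 Fmr1 probe sets every Fmr1 KO array lay below every WT array in both kinds of RNA (exact permutation p = 0.00216 for each, two-sided, over 924 splits). Of 29 measured markers of cortex and of other material, 16 reached a log2 value of 4 on all 24 arrays, among them the excitatory neuron markers Tbr1 and Neurod6, and those of cerebellum and liver stayed below it on all 24. The choroid plexus transcript Ttr ranged from 2.65 to 12.2 over the arrays, while the other choroid plexus markers, Kl and Folr1, stayed below 4 on all 24. The 6 replicates are pools of animals, and in bulk tissue fewer cells of a type and less RNA per cell cannot be told apart.

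All the genes except Ago3 were above the limit of 4 on every array at their brightest probe set. Ago3, an Argonaute of the cluster on chromosome 4, was near or below it. Its brightest probe set had a median log2 value of 3.60 in Fmr1 KO and 3.67 in WT polyribosomal RNA, and of 4.06 in Fmr1 KO and 4.13 in WT total RNA. It reached 4 on 0 of 6 polyribosomal arrays of either genotype, on 5 of 6 Fmr1 KO total arrays and on 4 of 6 WT total arrays. Its other 4 probe sets were tested in no comparison. Ago4, the neighbouring Argonaute, was low but measured on all arrays, with log2 values of 4.84 ± 0.23 in Fmr1 KO polyribosomal, 4.83 ± 0.27 in WT polyribosomal, 4.79 ± 0.12 in Fmr1 KO total and 4.79 ± 0.20 in WT total RNA (SD, n = 6 each). These 4 groups overlapped and lay closer together than the arrays within a group.

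**Figure D1:**
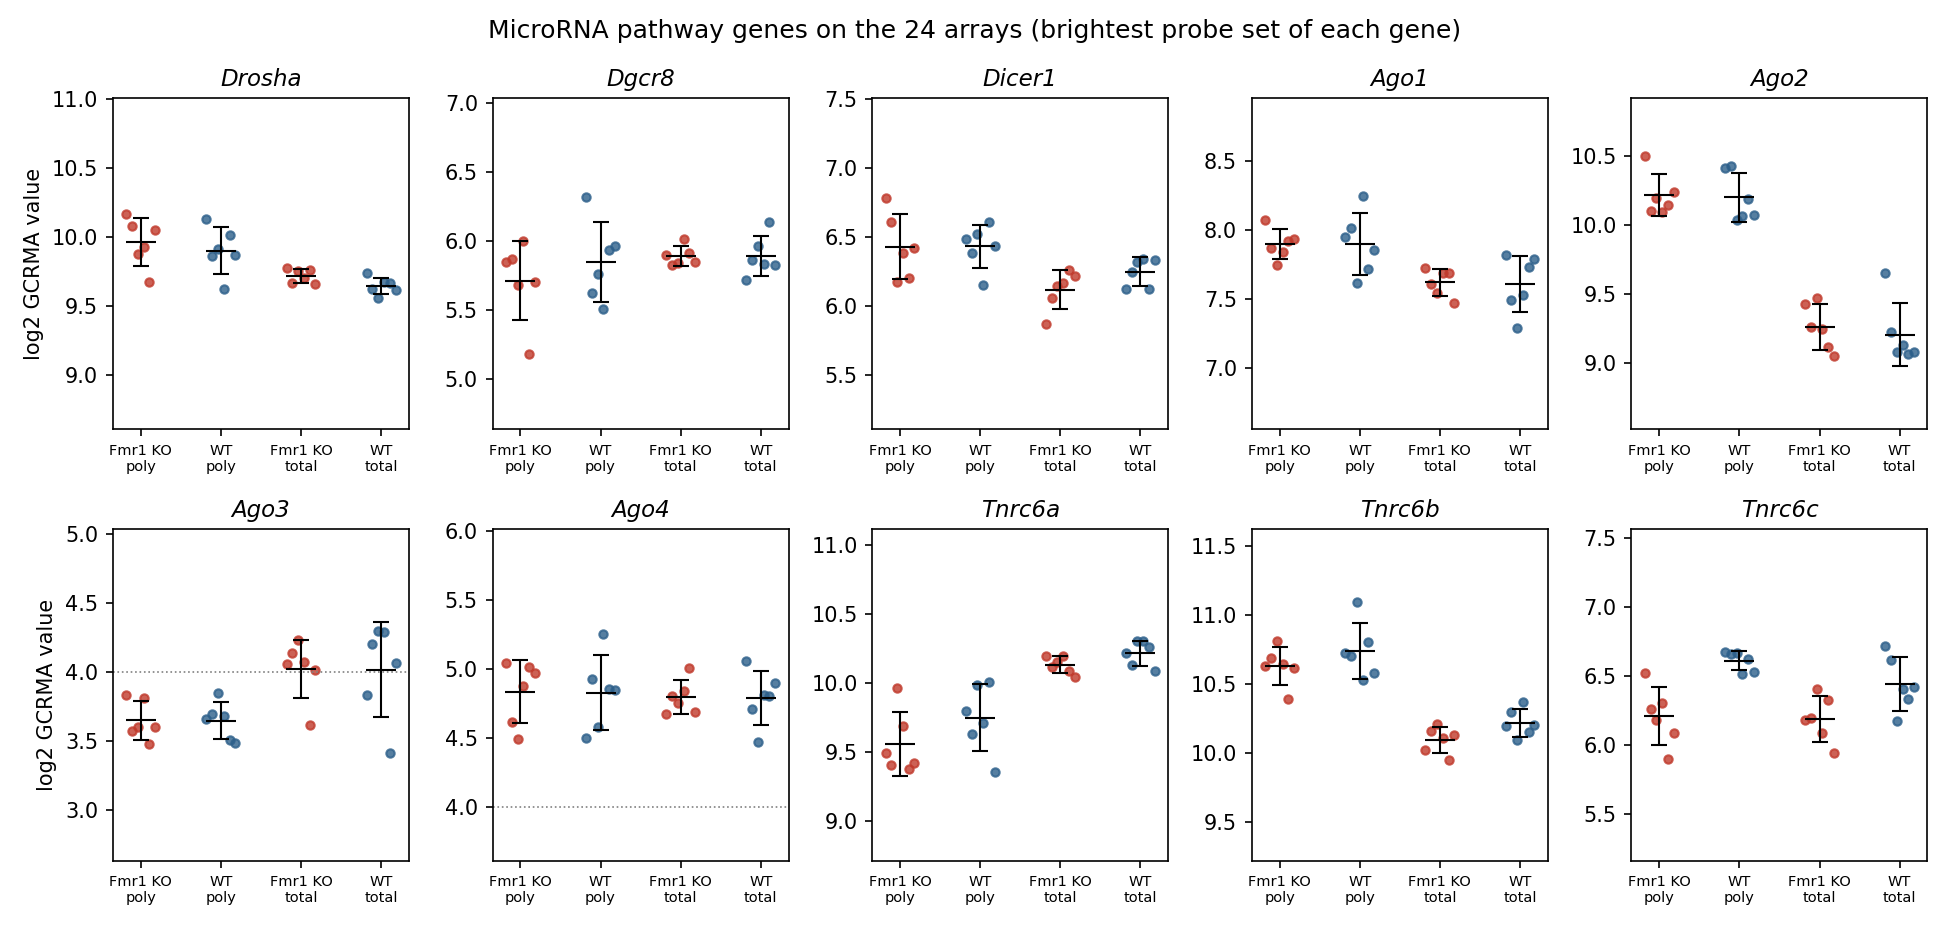
Log2 GCRMA values of the 10 genes on the 24 arrays, a panel for each gene with an axis of equal length; points are arrays, bars are the mean and SD of 6 arrays, red is Fmr1 KO and blue is WT, and the dotted line in low panels is the limit of 4. Ago2 and Tnrc6b lie higher in polyribosomal than in total RNA, Tnrc6a lies lower, and Tnrc6c is the gene whose Fmr1 KO arrays sit lowest against WT.

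Whether loss of FMRP moved the mRNAs of these genes was asked first in polyribosomal RNA, Fmr1 KO against WT. No member passed the test: limma called 0 of the 9 genes tested, with 1 gene at an unadjusted p under 0.05, and 0.0103% of the 9664 genes tested were called in all (1 gene). Over all genes 2.22% had an unadjusted p under 0.05. The members' log2 differences had a median of -0.0031, against 0.01 over all genes tested, and 3 were positive and 6 negative. The gene at an unadjusted p under 0.05 was Tnrc6c, which encodes a TNRC6 protein that binds Argonautes and deadenylases.

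At its brightest probe set, Tnrc6c had log2 values of 5.90, 6.22 and 6.52 (lowest, median and highest) in Fmr1 KO polyribosomal RNA, against 6.51, 6.64 and 6.67 in WT polyribosomal RNA. The WT arrays sat close together, and the only overlap was replicate 1 of Fmr1 KO, which lay within the WT range. The log2 difference was -0.40 (SE 0.10, 95% interval -0.62 to -0.18, limma's adjusted p = 1). At the second probe set, which shares its source sequence record with the first, Tnrc6c had 5.06, 5.28 and 5.53 in Fmr1 KO, against 5.55, 5.73 and 6.07 in WT polyribosomal RNA. Here the groups did not overlap, and the difference was -0.51 (SE 0.11, 95% interval -0.75 to -0.27, limma's adjusted p = 1). The remaining probe set of the gene was too dim to be tested. By p, these probe sets ranked 10 and 6 among the 17687 tested. Ttr, the marker that varied most, averaged 7.42 in Fmr1 KO and 9.78 in WT polyribosomal RNA and 6.91 in Fmr1 KO and 8.93 in WT total RNA, and its part in the Tnrc6c values was not tested.

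Total RNA gave values of the same sign for Tnrc6c. Its brightest probe set had 5.94, 6.19 and 6.40 in Fmr1 KO, against 6.17, 6.41 and 6.72 in WT total RNA, and the groups overlapped. The log2 difference was -0.25 (SE 0.10, 95% interval -0.46 to -0.04, limma's adjusted p = 0.951). The second probe set had 5.28, 5.48 and 5.57 in Fmr1 KO, against 5.69, 5.75 and 6.06 in WT total RNA. The groups did not overlap, and all 6 Fmr1 KO arrays lay below the lowest WT array. The difference was -0.33 (SE 0.07, 95% interval -0.49 to -0.18, limma's adjusted p = 0.341). The 2 kinds of RNA come from the same lysates, so they do not repeat the measurement in other animals.

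Dicer1, the RNase that makes the mature microRNA, gave different values at its 2 probe sets in polyribosomal RNA. The brighter had log2 values of 6.17, 6.40 and 6.78 in Fmr1 KO, against 6.15, 6.46 and 6.61 in WT polyribosomal RNA, a difference of -0.00 (95% interval -0.26 to 0.25, limma's adjusted p = 1). The groups overlapped. The dimmer had 5.17, 5.37 and 5.44 in Fmr1 KO, against 5.51, 5.63 and 5.82 in WT polyribosomal RNA. Those groups did not overlap, and all 6 Fmr1 KO arrays lay below the lowest WT array. The difference was -0.32 (SE 0.09, 95% interval -0.52 to -0.12, limma's adjusted p = 1). In total RNA the dimmer probe set had 5.10, 5.37 and 5.46 in Fmr1 KO, against 5.35, 5.56 and 5.66 in WT, and the groups overlapped. The difference there was -0.20 (SE 0.08, limma's adjusted p = 0.949). The brighter probe set had the same sign in total RNA, at -0.13 (95% interval -0.29 to 0.03, limma's adjusted p = 0.998), and its groups overlapped. Polyribosomal groups with no overlap and Fmr1 KO lower were thus found at 2 of the 24 probe sets of these genes tested, against 0.0622% of the 17687 probe sets tested. In total RNA this held for 1 of 25, against 0.196% of 17850.

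Like Tnrc6c and Dicer1, the remaining genes were not called by limma in either kind of RNA. In polyribosomal RNA the 95% intervals of the 9 genes ran from -0.62 to 0.30 on the log2 scale. Ago2, the Argonaute that can cut its target, differed by 0.01 (95% interval -0.21 to 0.24) and Ago1 by -0.00 (-0.24 to 0.23). For Drosha the difference was 0.06 (-0.17 to 0.29), for Dgcr8 -0.14 (-0.46 to 0.19) and for Ago4 0.01 (-0.28 to 0.30). Tnrc6a differed by -0.19 (-0.47 to 0.09) and Tnrc6b by -0.11 (-0.34 to 0.12), so that all 3 TNRC6 genes had negative values, none of them past the test. A dimmer Dgcr8 probe set differed by -0.33 (SE 0.14, limma's adjusted p = 1), which the other 2 tested probe sets of Dgcr8, at -0.14 and -0.05, did not match in size.

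In total RNA, limma called 0 of the 10 genes tested in Fmr1 KO against WT, with 1 gene (Tnrc6c) at an unadjusted p under 0.05, and 0.0413% of all 9690 genes tested were called. Over all genes 5.05% had an unadjusted p under 0.05 in total RNA. The members' median difference was 0.0014, against -0.01 over all genes, with 6 positive and 4 negative. The intervals were narrower than in polyribosomal RNA for all the genes tested in both, and over the 10 they ran from -0.46 to 0.32. Drosha differed by 0.07 (95% interval -0.03 to 0.18) and Ago2 by 0.06 (-0.17 to 0.28). Between same-numbered arrays, the brightest Drosha probe set was higher in Fmr1 KO in 6 of 6 pairs. With the replicate block it had an adjusted p of 0.703 by limma. The other tested Drosha probe set differed by -0.02 and was higher in Fmr1 KO in 2 of 6 pairs. Tnrc6a stood at -0.08 (-0.20 to 0.03) at its brightest probe set, with Fmr1 KO lower in 6 of 6 pairs. With that block it had an adjusted p of 0.669 by limma. Of the 7 Tnrc6a probe sets tested, 6 had negative differences and 1 a positive one, and only the brightest was lower in all pairs. The share of all probe sets with 6 of 6 pairs of a sign is not given, so these counts are a description only. Tnrc6b stood at -0.12 (-0.26 to 0.01). Ago3, tested in this comparison and not in polyribosomal RNA, differed by 0.01 (-0.31 to 0.32).

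**Figure D2:**
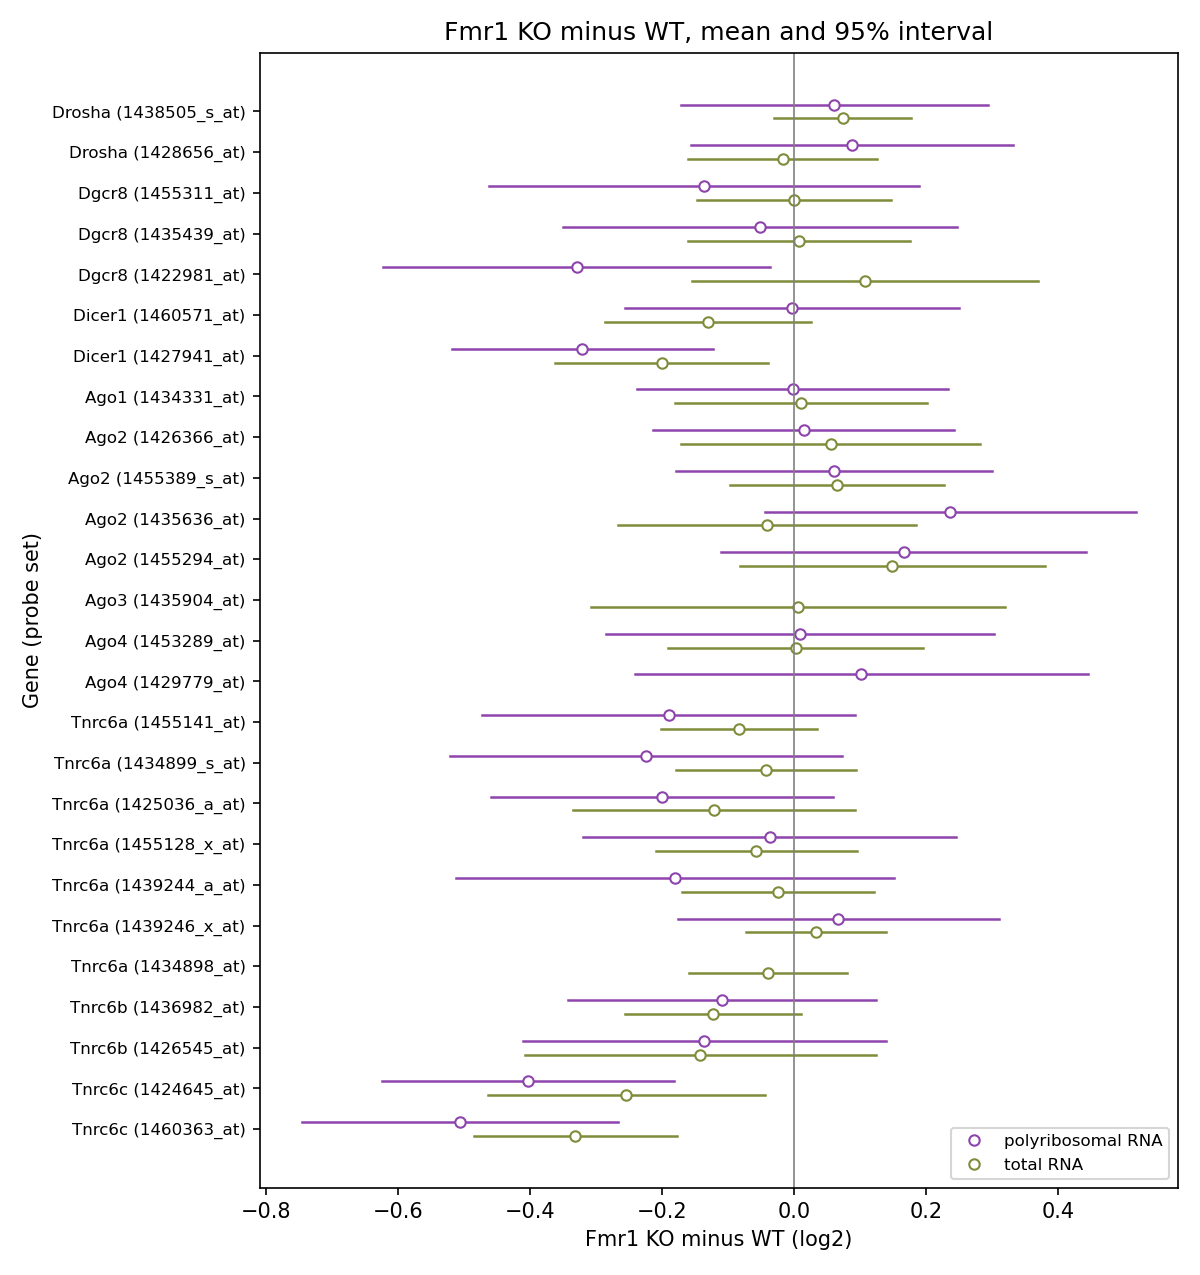
Fmr1 KO minus WT (log2) at each tested probe set of the 10 genes, down the page by role and brightness, with 95% intervals; purple is polyribosomal RNA and olive is total RNA, and open symbols mark an adjusted p of 0.05 or more, which all of them had. The intervals of both Tnrc6c probe sets and of the dimmer Dicer1 probe set lie below 0 in both kinds of RNA.

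Where the mRNAs of these genes stood between polyribosomal and total RNA was measured within lysates, separately in Fmr1 KO and in WT. The arrays had near-equal medians after normalization, so higher and lower are relative to the other mRNAs on the array. They do not give the share of an mRNA that was on polyribosomes. In both genotypes Ago2, Tnrc6b, Ago1 and Drosha were higher in polyribosomal RNA and Tnrc6a was lower, and in Fmr1 KO Dicer1 was higher too. Ago2 stood out at its brightest probe set with differences close to 1 on the log2 scale, about 2 times its normalized value in total RNA. Its other probe sets gave smaller values. The TNRC6 genes Tnrc6a and Tnrc6b, which encode proteins of like function, went in opposite directions. At their brightest probe sets Tnrc6b was higher and Tnrc6a lower in all 12 lysates. In Fmr1 KO limma called 5 of 9 genes tested higher and 1 lower, against 38.7% of all 9700 genes higher and 28.2% lower. In WT it called 4 of 9 higher and 1 lower, against 37.5% of all 9725 genes higher and 28.4% lower. The members' median difference was 0.24 in Fmr1 KO and 0.18 in WT, and over all genes tested it was 0.09 in each. Shares of this size among so few genes are not a result about the group, and the values are given gene by gene.

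Drosha, the nuclear RNase, had log2 values of 9.68, 9.99 and 10.16 in polyribosomal RNA of Fmr1 KO, against 9.66, 9.73 and 9.77 in total RNA of Fmr1 KO. In WT it had 9.62, 9.89 and 10.13 in polyribosomal RNA, against 9.56, 9.64 and 9.73 in total RNA. The groups overlapped in both genotypes, and 5 of 6 lysates of each genotype had the higher value in polyribosomal RNA. The difference was 0.24 in Fmr1 KO (SE 0.09, limma's adjusted p = 0.0310) and 0.26 in WT (SE 0.09, adjusted p = 0.0225). These calls were lost when some lysates were left out: without replicate 1, 2, 4 or 6 the adjusted p lay between 0.0668 and 0.102 in Fmr1 KO, and without replicate 1, 3, 5 or 6 between 0.0559 and 0.0682 in WT. A further probe set of Drosha was called as well, at 0.41 in Fmr1 KO and 0.31 in WT, with 6 of 6 lysates higher in each, and the remaining one was too dim to be tested.

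Dgcr8, the partner of Drosha, was not called at its brightest probe set. It had log2 values of 5.71 ± 0.29 in polyribosomal and 5.89 ± 0.07 in total RNA of Fmr1 KO, and of 5.85 ± 0.29 in polyribosomal and 5.89 ± 0.14 in total RNA of WT (SD, n = 6 each). The difference was -0.18 in Fmr1 KO (95% interval -0.41 to 0.05) and -0.04 in WT (-0.31 to 0.22). The dimmest of the 3 probe sets of Dgcr8 tested was called lower in Fmr1 KO, at -0.39 (SE 0.13, limma's adjusted p = 0.0177; 5 of 6 polyribosomal arrays reached 4), with a WT value of 0.05 (adjusted p = 0.740). In a comparison chosen after these values were seen, the shift of Drosha exceeded that of Dgcr8 in 6 of 6 lysates of Fmr1 KO and in 5 of 6 of WT.

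Dicer1 was called in Fmr1 KO and not in WT, and this difference between genotypes was itself not past the test (0.13, 95% interval -0.22 to 0.47, limma's adjusted p = 0.999). Its brightest probe set had log2 values of 6.43 ± 0.24 in polyribosomal and 6.12 ± 0.14 in total RNA of Fmr1 KO, and of 6.43 ± 0.16 in polyribosomal and 6.25 ± 0.10 in total RNA of WT (SD, n = 6 each). The difference was 0.31 in Fmr1 KO (SE 0.12, adjusted p = 0.0419) and 0.18 in WT (SE 0.10, adjusted p = 0.122). Replicate 1 of Fmr1 KO had the largest shift, 0.92, and without it the difference was 0.19 (adjusted p = 0.130). The call in Fmr1 KO was also lost without replicate 2, 4 or 6 (adjusted p = 0.107, 0.0662 and 0.0640), and without replicate 4 the WT difference was 0.26 and was called (adjusted p = 0.0234). The other Dicer1 probe set had differences of 0.00 in Fmr1 KO and 0.12 in WT and was not called.

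Ago1 has a single probe set and was called higher in both genotypes. Its log2 values were 7.74, 7.89 and 8.07 in polyribosomal and 7.47, 7.64 and 7.72 in total RNA of Fmr1 KO, and these groups did not overlap. In WT they were 7.62, 7.90 and 8.24 in polyribosomal and 7.29, 7.63 and 7.81 in total RNA, with overlap. The difference was 0.28 in Fmr1 KO (SE 0.08, limma's adjusted p = 0.00803), with 6 of 6 lysates higher, and 0.29 in WT (SE 0.11, adjusted p = 0.0326), with 5 of 6 higher. The WT call was lost without replicate 2, 3 or 4, with an adjusted p of 0.0994, 0.0734 and 0.0820.

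Ago2 had the largest shift of the 10 genes when each was read at its brightest probe set. At its brightest probe set the log2 values were 10.09, 10.17 and 10.50 in polyribosomal RNA of Fmr1 KO, against 9.05, 9.25 and 9.47 in total RNA of Fmr1 KO. In WT they were 10.03, 10.13 and 10.43 in polyribosomal RNA, against 9.07, 9.10 and 9.65 in total RNA. The groups did not overlap in either genotype, and the polyribosomal value was higher in 12 of 12 lysates. The difference was 0.95 in Fmr1 KO (SE 0.09, 95% interval 0.77 to 1.14, 1.94-fold, limma's adjusted p = 2.52e-06) and 0.99 in WT (SE 0.09, 95% interval 0.81 to 1.18, 1.99-fold, adjusted p = 2.35e-06). Its 3 other probe sets were called higher too, but their values were smaller, from 0.36 to 0.68 in Fmr1 KO and from 0.34 to 0.41 in WT. The probe sets of Ago2 thus gave the same direction and disagreed in size. Replicate 1 lay above the others in polyribosomal RNA of Fmr1 KO and in total RNA of WT, and without it the difference was 0.93 in Fmr1 KO and 1.04 in WT.

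At the brightest probe set of Ago2, its shift exceeded that of Ago1 in 6 of 6 lysates of each genotype. The median excess was 0.71 in Fmr1 KO and 0.66 in WT on the log2 scale, and the pair was chosen after the values were seen. The excess depends on the probe set. In WT the other Ago2 probe sets differed by 0.34 to 0.41, against 0.29 for Ago1, and in Fmr1 KO by up to 0.68, against 0.28. Ago4 was not called at its brightest probe set, with differences of 0.04 in Fmr1 KO (95% interval -0.17 to 0.26) and 0.04 in WT (-0.22 to 0.29). The other Ago4 probe set was too dim for this test. It reached 4 on 4 of 6 polyribosomal arrays of Fmr1 KO, on 5 of 6 of WT and on no total array. Its values were higher in polyribosomal RNA in 6 of 6 lysates of each genotype, by 0.44 in Fmr1 KO and 0.30 in WT on average. Ago3 was too dim for the test, and its values were lower in polyribosomal than in total RNA in 6 of 6 lysates of Fmr1 KO and in 5 of 6 of WT, with medians of -0.34 in Fmr1 KO and -0.48 in WT. So near the limit of detection these Ago3 values carry no size.

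**Figure D3:**
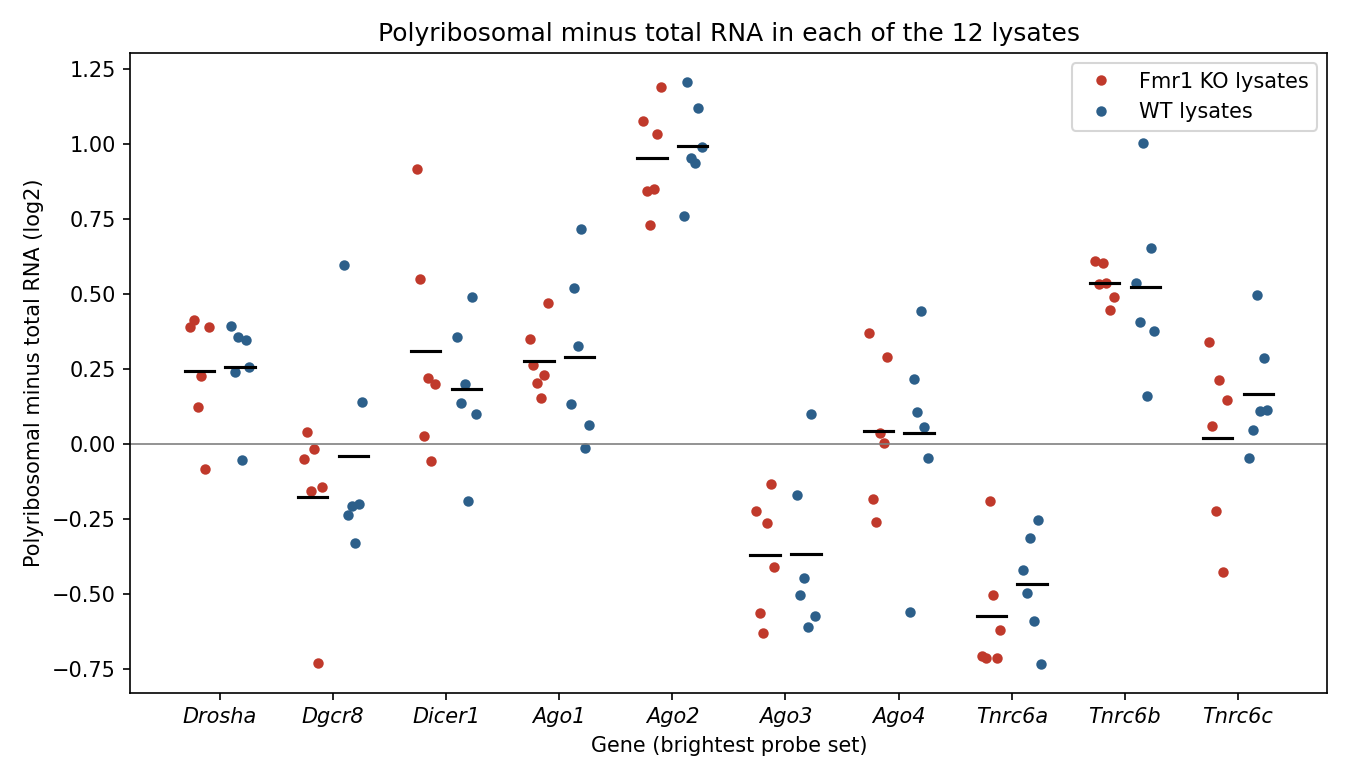
Polyribosomal minus total RNA (log2) in each lysate for the brightest probe set of each gene; points are lysates, red for the 6 of Fmr1 KO and blue for the 6 of WT, and the black line is the mean. Ago2 and Tnrc6b lie above 0 and Tnrc6a below 0 in all 12 lysates, while Ago4 and Tnrc6c scatter on both sides. Ago3 is drawn though it was too dim to be tested.

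Tnrc6a encodes the protein also known as GW182, a component of cytoplasmic processing bodies. At its brightest probe set it had log2 values of 9.38, 9.46 and 9.97 in polyribosomal RNA of Fmr1 KO, against 10.04, 10.14 and 10.20 in total RNA of Fmr1 KO. In WT it had 9.36, 9.76 and 10.01 in polyribosomal RNA, against 10.09, 10.24 and 10.30 in total RNA. The groups did not overlap in either genotype, and all 12 lysates had the lower value in polyribosomal RNA. The difference was -0.57 in Fmr1 KO (SE 0.09, 95% interval -0.77 to -0.38, limma's adjusted p = 0.000171) and -0.47 in WT (SE 0.09, 95% interval -0.66 to -0.27, adjusted p = 0.000739). Of the 9 probe sets of Tnrc6a, 7 were tested and 5 of these reached a log2 value of 4 on all 24 arrays. All 5 had negative differences in both genotypes, with 4 called lower in Fmr1 KO and 2 in WT. A further probe set was called lower in both, but it reached 4 on 6 of 6 total arrays of each genotype, against 0 of 6 polyribosomal arrays of Fmr1 KO and 3 of 6 of WT, so that it was tested only because it is bright in total RNA. Several of them come from the same source sequence record, so they are not independent measurements. The 2 probe sets not called in either genotype are of the x type, whose probes can pick up other transcripts.

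Tnrc6b, its relative, had log2 values of 10.40, 10.64 and 10.82 at its brightest probe set in polyribosomal RNA of Fmr1 KO, against 9.95, 10.12 and 10.21 in total RNA of Fmr1 KO. In WT it had 10.53, 10.72 and 11.10 in polyribosomal RNA, against 10.10, 10.20 and 10.37 in total RNA. The groups did not overlap in either genotype, and all 12 lysates had the higher value in polyribosomal RNA. The difference was 0.54 in Fmr1 KO (SE 0.07, 95% interval 0.37 to 0.70, limma's adjusted p = 6.02e-05) and 0.52 in WT (SE 0.11, 95% interval 0.28 to 0.76, adjusted p = 0.00133). The other tested probe set of Tnrc6b was not called, at 0.11 in each genotype (95% interval -0.06 to 0.29 in Fmr1 KO and -0.16 to 0.37 in WT). It was higher in polyribosomal RNA in 6 of 6 lysates of Fmr1 KO and in 4 of 6 of WT. The Tnrc6b probe sets thus disagreed on whether a shift was called, while all 4 of Ago2 were called higher.

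The brightest probe sets of Tnrc6b and Tnrc6a were set side by side within a lysate. The shift of Tnrc6b exceeded that of Tnrc6a in 6 of 6 lysates of Fmr1 KO, by 0.79 to 1.31, and in 6 of 6 of WT, by 0.75 to 1.31. This pair was chosen after the values were seen and was not tested. Tnrc6c took neither direction: its brightest probe set differed by 0.02 in Fmr1 KO (95% interval -0.21 to 0.25) and by 0.17 in WT (-0.03 to 0.37), and its second by -0.19 in Fmr1 KO and -0.02 in WT, with no call.

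Counted by probe set, limma called 9 of 24 higher and 6 lower in Fmr1 KO, against 37.2% of all 17854 probe sets higher and 28.7% lower. In WT it called 8 of 24 higher and 3 lower, against 36.2% of all 17893 higher and 29.1% lower. Among the 21 probe sets that reached 4 on all 24 arrays, 9 were called higher and 4 lower in Fmr1 KO, and 8 higher and 2 lower in WT. No share of all probe sets under that stricter limit is given, so these counts are a description only.

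**Figure D4:**
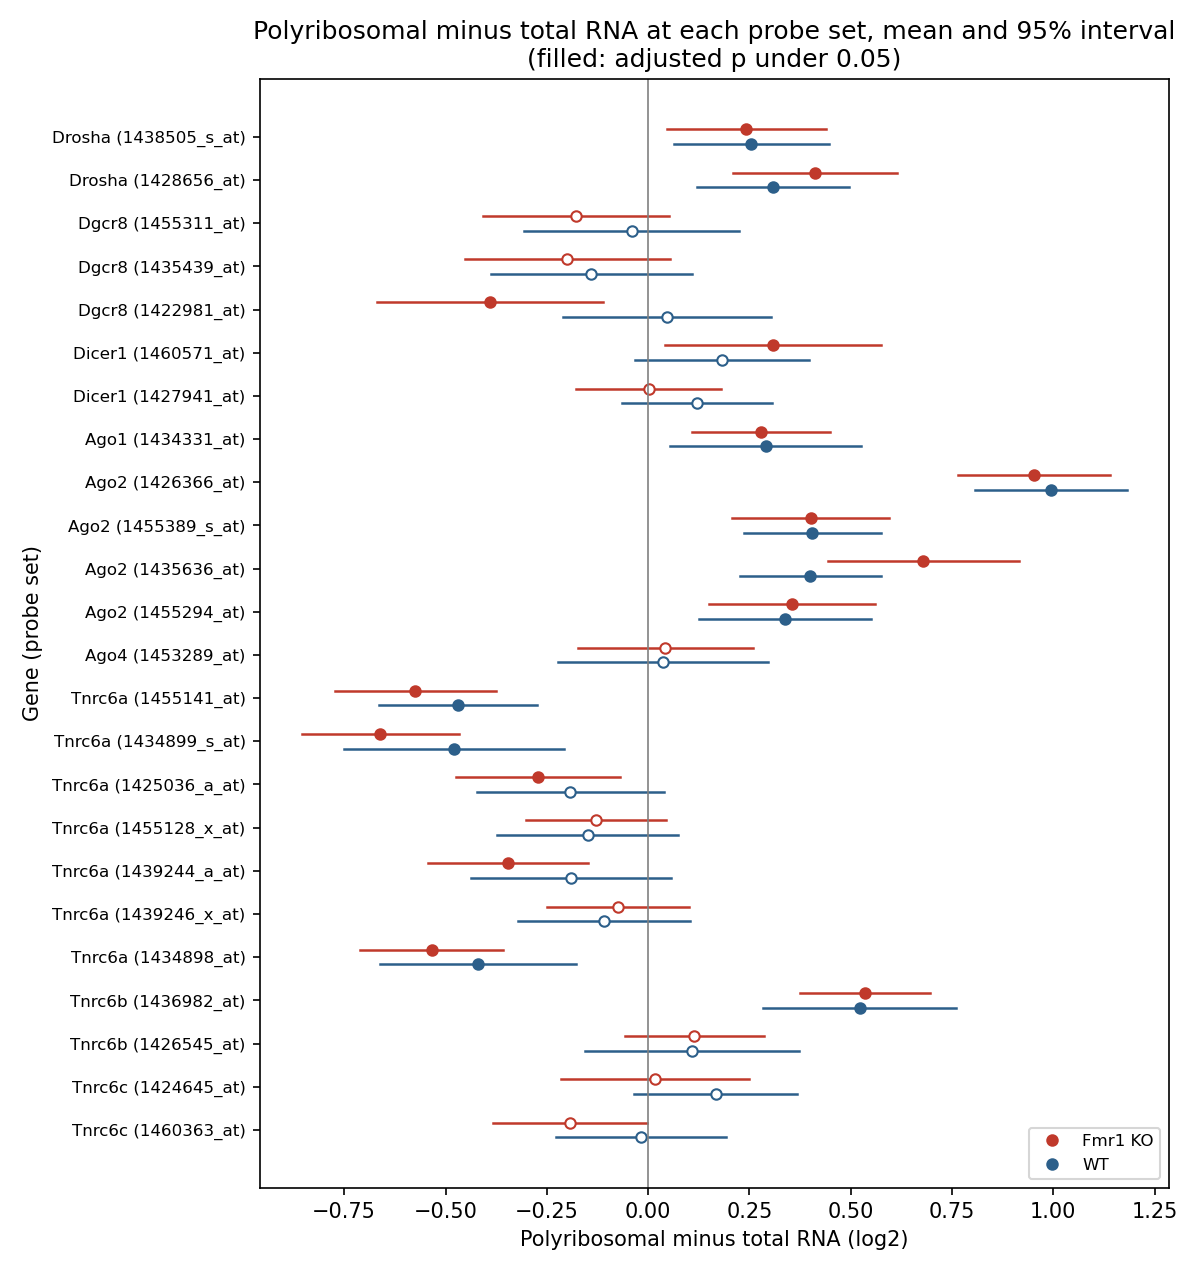
Polyribosomal minus total RNA (log2) at each tested probe set of the 10 genes with 95% intervals, red for Fmr1 KO and blue for WT; filled symbols had an adjusted p under 0.05. All 4 probe sets of Ago2 lie above 0 and all 7 of Tnrc6a below it (the bottom Tnrc6a row was below a log2 value of 4 on every polyribosomal array of Fmr1 KO), with sizes that differ between probe sets of the same gene.

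The polyribosomal minus total differences were then compared between Fmr1 KO and WT lysates, which tests whether the genotypes distributed an mRNA differently. Limma called 0 of the 10 genes tested, and 0% of all 9955 genes (0 genes, with 2.34% at an unadjusted p under 0.05). None of the 10 had an unadjusted p under 0.05 at its brightest probe set. Ago3 was among the 10 through its total RNA alone, since it reached a log2 value of 4 on no polyribosomal array, and its value says nothing on a genotype difference. The values had a median of -0.01 and their 95% intervals ran from -0.49 to 0.47, so that genotype differences of up to that size lie within them. For Ago2 the difference between genotypes was -0.04 (95% interval -0.28 to 0.20), for Tnrc6a -0.11 (-0.36 to 0.15), for Tnrc6b 0.01 (-0.26 to 0.28) and for Tnrc6c -0.15 (-0.45 to 0.15). Over all 26 probe sets tested limma called 0, with 2 at an unadjusted p under 0.05. These were the dimmest tested probe set of Dgcr8, at -0.44 (SE 0.18, adjusted p = 0.999), and a dimmer one of Ago2, at 0.28 (SE 0.13, adjusted p = 0.999).

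The wider pathway was taken from a list of 60 genes of microRNA processing, deadenylation, decapping and Argonaute function, of which 57 were on the table (Cnot1, Gemin4 and Hsp90ab1 were not analysed here). Between Fmr1 KO and WT, limma called 0 of 46 in polyribosomal RNA, with 2 at an unadjusted p under 0.05, and 0 of 47 in total RNA, with 0 at an unadjusted p under 0.05. Over all genes, 0.0103% were called in polyribosomal RNA, with 2.22% at an unadjusted p under 0.05. In total RNA these shares were 0.0413% and 5.05%. The smallest p of the list belonged to Cnot6l, a deadenylase subunit, in polyribosomal RNA (0.37, SE 0.15, limma's adjusted p = 1) and to Dcp1a, a decapping factor, in total RNA (0.15, SE 0.08, adjusted p = 0.990). In the comparison of lysate differences between genotypes it belonged to Tut7, a uridylyltransferase (-0.28, SE 0.10, adjusted p = 0.999), with 0 of 48 called and 1 at an unadjusted p under 0.05. Over all genes 0% were called in that comparison and 2.34% had an unadjusted p under 0.05.

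Between polyribosomal and total RNA, 15 of 47 were called higher and 11 lower in Fmr1 KO, and 19 of 46 higher and 11 lower in WT. As shares these were 31.9% higher and 23.4% lower in Fmr1 KO, against 38.7% and 28.2% of all genes, and 41.3% higher and 23.9% lower in WT, against 37.5% and 28.4% of all genes. The 3 largest falls in each genotype were those of deadenylation genes, of which limma called 4 higher and 5 lower of 13 in Fmr1 KO and 5 higher and 5 lower of 13 in WT. Pabpc1, the cytoplasmic poly(A)-binding protein that TNRC6 proteins contact, fell by 1.87 in Fmr1 KO and fell by 1.84 in WT on the log2 scale (limma's adjusted p = 1.47e-08 and 6.83e-08). Cnot6, a catalytic subunit of the CCR4-NOT deadenylase, fell by 1.32 in Fmr1 KO and fell by 1.47 in WT. Subunits of that complex stood on both sides. Cnot8 rose by 1.06 in Fmr1 KO and 0.99 in WT, and Cnot11 by 1.01 and 1.03, while Cnot4 fell by 1.08 in Fmr1 KO and fell by 1.05 in WT, and Cnot7 fell by 0.98 in Fmr1 KO and fell by 1.13 in WT. Prkra, which encodes the Dicer partner PACT, rose by 1.05 in Fmr1 KO and 0.88 in WT.

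In the other groups of the list, microRNA processing and export had 4 higher and 2 lower of 12 in Fmr1 KO and 5 higher and 2 lower of 12 in WT. Decapping and decay had 3 higher and 3 lower of 12 in Fmr1 KO and 4 higher and 3 lower of 11 in WT. Partners of the Argonautes had 4 higher and 1 lower of 10 in Fmr1 KO and 5 higher and 1 lower of 10 in WT. The shares of all genes were 38.7% higher and 28.2% lower in Fmr1 KO and 37.5% higher and 28.4% lower in WT, and counts over so few genes are a description only. None of the 3 PIWI genes, germline relatives of the Argonautes, was bright enough to be tested. The list's median difference was 0.14 in Fmr1 KO and 0.18 in WT, against 0.09 over all genes in each.

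**Figure D5:**
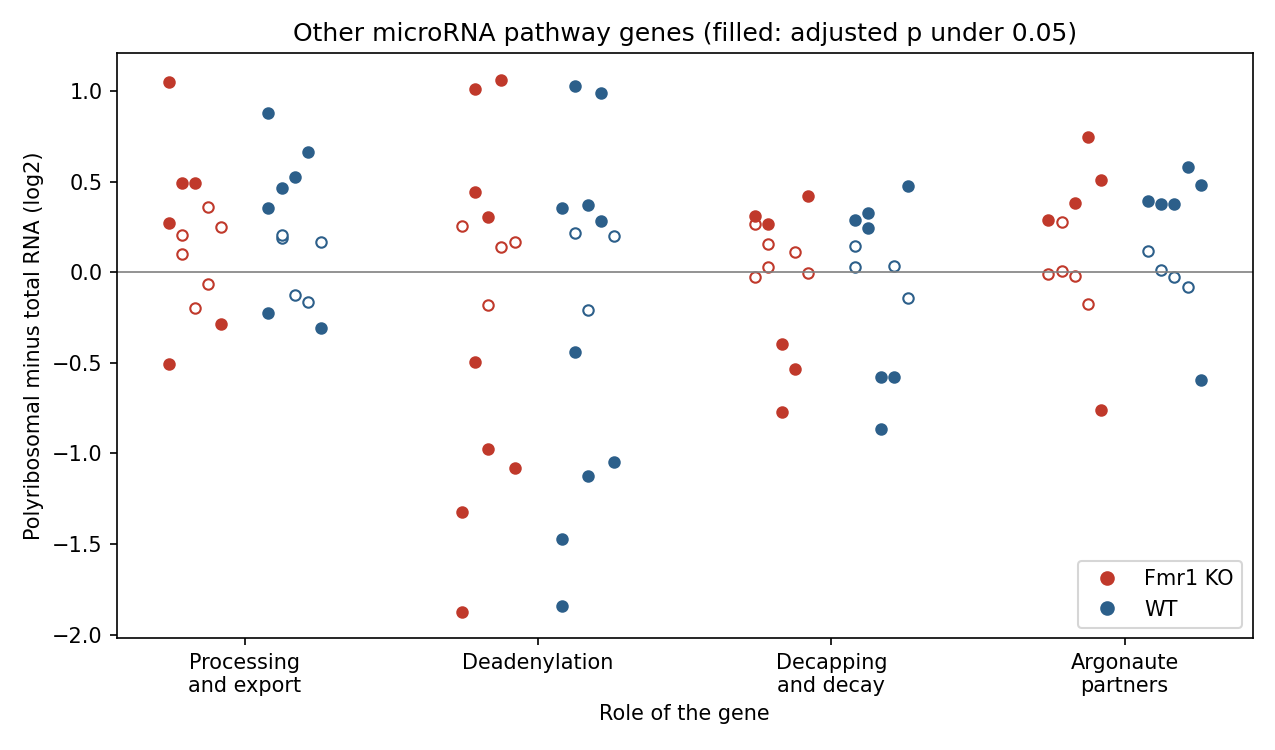
Polyribosomal minus total RNA (log2) of the tested genes of the wider pathway by role, red for Fmr1 KO and blue for WT, each point a gene at its brightest probe set; filled symbols had an adjusted p under 0.05. Deadenylation genes spread from -1.87 to 1.06 in Fmr1 KO and from -1.84 to 1.03 in WT.

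For each gene, the other gene with the most similar log2 values over the 24 arrays was sought among 9954 genes, as a description with Pearson's r. Arrays of the 2 kinds of RNA share lysates, and an r over all 24 arrays includes the difference between polyribosomal and total RNA. For Ago2 it was Letm1 (r = 0.96 over 24 arrays, but 0.39 over the 12 polyribosomal arrays and 0.80 over the 12 total arrays). For Tnrc6a it was Thsd7a (r = 0.95, with 0.90 and 0.39 in the same order) and for Tnrc6b Xrcc4 (r = 0.95, with 0.84 and 0.73). The other pairs, in the same order of r, were Drosha with Armcx2 (0.93, with 0.95 and 0.35), Dicer1 with Map3k4 (0.88, with 0.81 and 0.80) and Ago1 with Ptpn9 (0.87, with 0.84 and 0.62). Dgcr8 went with Srp72 (0.85, with 0.90 and 0.52), Ago4 with Nagk (0.78, with 0.90 and 0.50) and Tnrc6c with Rims1 (0.76, with 0.75 and 0.76). Ago3 went with Cd2ap (0.86, with 0.31 and 0.91). Both of these were too dim to be tested between polyribosomal and total RNA.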

How the data were processed

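RNA of 12 lysates was measured on 24 Affymetrix mouse arrays of 1 design. Per the submitters' processing notes the authors used GCRMA (version not given in the sources used here). The deposited values were taken as log2, judged from their range and near-equal medians, and whether all arrays were normalized together was not stated. The number of arrays limits the precision. Of 45037 probe sets, 34945 carried a single symbol in the platform annotation, 932 carried several and 9160 had no symbol, and 34741 of the first had an ID in the RefSeq table of GRCm38.p6. Differences were fitted with limma 3.58.1 in R 4.3.3 (two-sided), on the whole table. The 5 comparisons set Fmr1 KO against WT in each kind of RNA, polyribosomal against total RNA in each genotype (blocked by lysate), and the lysate differences of Fmr1 KO against those of WT. Plots were made in Python 3.11.15 (matplotlib 3.10.9). The members, the pathway list and the markers were chosen with earlier results of these data known. Named genes are all members, and from the pathway list the 3 largest rises and 3 largest falls called in a comparison or, where none was called, the gene with the smallest p. The fit was tested on simulated data.

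Arrays of the same genotype and replicate number were taken to share a lysate, an inference from the protocol that the sample titles do not state. Deviations of these polyribosomal and total arrays from their group means correlated between 0.16 and 0.47 in Fmr1 KO. In WT they correlated between 0.02 and 0.52, so that the lowest WT value is under the limit of 0.1 used below. Deviations of same-numbered Fmr1 KO and WT arrays from their group means correlated between 0.13 and 0.53 in total RNA and between -0.14 and 0.63 in polyribosomal RNA. By the rule that every pair exceed 0.1, the numbers pair the genotypes in total RNA and not in polyribosomal RNA. Whether they mark littermate pairs was not tested. The genotype comparisons were fitted without a replicate block, which was run as an alternative. No 2 arrays were identical. Alternatives were other filters, probe set choices, scalings, variance models and blocks, and leaving out each replicate.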

Additional observations from a re-analysis of the deposited data

Results flagged for a closer look

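In 3 of 40 groups of 6 arrays, 1 array stood apart by Dixon's test, and chance gives about 1 in 20. Ago2 in replicate 1 of Fmr1 KO polyribosomal RNA was at a log2 value of 10.50, above the others at 10.09 to 10.24. Ago2 in replicate 1 of WT total RNA was at 9.65, above the others at 9.07 to 9.22. Ago3 in replicate 5 of Fmr1 KO total RNA was at 3.61, below the others at 4.01 to 4.23 and under the detection limit of 4.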

How the results depend on the processing

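Of 663 values of single genes under the alternatives, 642 kept their side of the threshold (59 of them uncalled values that changed sign), 17 lost a call, 4 gained one and 0 called values reversed. Ago2, Tnrc6a and Tnrc6b were called in both genotypes under all 14 alternatives run for polyribosomal against total RNA. In 1 of these each gene was read at its probe set with the lowest p, so a call could not be lost there. None read Tnrc6b at its dimmer tested probe set alone, which was not called in either genotype. Leaving out 1 replicate moved the count of genes called to between 3 (without replicate 3) and 5 in WT and between 4 and 6 in Fmr1 KO. With the mean of all probe sets of a gene, Fmr1 KO gained Dgcr8 (-0.20, limma's adjusted p = 0.0472) and Ago4 (0.24, adjusted p = 0.0315) and lost Dicer1 (0.16, adjusted p = 0.0967), and Dicer1 was also lost with no filter (adjusted p = 0.0669). With no filter, 2 genes were called lower in each genotype. Between genotypes 0 members were called under every alternative, the replicate block included; Tnrc6c ran from -0.51 to -0.29 (adjusted p 0.401 to 1) in polyribosomal and from -0.35 to -0.19 (adjusted p 0.341 to 1) in total RNA, and with the replicate block it was at -0.40 (adjusted p = 0.968) and -0.25 (adjusted p = 0.543). The replicate block called 0 members in the comparison of lysate differences, and without the lysate block 5 members were called in WT and 6 in Fmr1 KO. Over all probe sets, Fmr1 KO against WT gave 3 calls in polyribosomal RNA, 1 with gene means and 5 with all 24 arrays in the fit. In total RNA it gave 7, and 3 with a limit of 6, 3 with gene means, 4 with the replicate block, 4 with all 24 arrays and 2 to 4 without a replicate. Gene means, with fewer features, gave 5970 calls in Fmr1 KO and 5824 in WT for polyribosomal against total RNA, against 11766 and 11697. The cause of these changes was not tested. Signal near background limits Ago3 and Ago4.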
